A study of Mus musculus with 4 samples.

Results

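The cells described here are tumor-infiltrating myeloid cells that expressed *Cd209a*, a C-type lectin receptor of the DC-SIGN family that marks type 2 conventional dendritic cells (DC2) and dendritic cells derived from monocytes. They were selected on their own raw UMI counts (unique molecular identifiers, 1 per captured transcript). A cell needed at least 3 *Cd209a* UMIs, fewer than 2 of *Xcr1* plus *Clec9a* (markers of type 1 dendritic cells, DC1), fewer than 3 of *Fscn1* (mature DC) and fewer than 3 of *Siglech* (plasmacytoid DC). It also needed fewer than 10 UMIs of *C1qa*, *C1qb* and *C1qc* together (macrophages) and at most 1 of *Cd3d*, *Cd3e* and *Cd3g* together (T cells). In all, 8822 CD45-positive cells had at least 1000 but fewer than 6000 genes and under 10% of UMIs from mitochondrial genes. Of these, 154 met the limits, 58 in the ZsG-negative and 96 in the ZsG-positive library.

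Dendritic cells carry antigen from tissues to lymph nodes and present it to T cells. DC1 specialize in presentation on MHC class I, whereas DC2 present mainly on MHC class II to CD4 T cells and express lectin receptors such as Clec10a and Mgl2. Inflamed tissues and tumors also hold dendritic cells that arise from Ly6c-high monocytes and share many DC2 genes, so that RNA alone separates them poorly.

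The cells came from subcutaneous B16-F10 melanomas in wild-type C57BL/6 mice. B16-F10 is a mouse melanoma line, and the tumor cells used here were 1 clone that carried the green fluorescent protein ZsGreen (ZsG) on a lentiviral vector, switched on by doxycycline in the drinking water of every mouse. On day 8 after injection the tumors were digested, and CD45-positive cells were sorted into a ZsG-negative gate and a ZsG-positive gate, the latter holding immune cells with bright tumor-derived fluorescence. Each gate gave 1 droplet-based 3′ single-cell RNA-seq library, with no replicate, and how many mice were pooled for a gate is not stated in the labels or methods.

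Because there was 1 library per gate, no test was made. Levels are UMIs summed over the cells of a group, divided by the group's UMIs and multiplied by 1000000 (CPM), and every interval is a 95% interval for counting error only, which does not include the spread between mice. A gene was compared where both groups together held at least 50 UMIs, and "past 2-fold" describes these libraries. The 10 highest and 10 lowest genes of a comparison were picked only from compared genes detected in 10% or more of the higher group's cells. The 58 ZsG-negative cells held 610178 UMIs (median 9714 per cell) and the 96 ZsG-positive cells 1100967 (median 10291.5). Both libraries together shared 5 barcodes among the filtered cells, 1 of which was a ZsG-negative *Cd209a*-positive cell.

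For comparison, monocytes were cells with at least 5 UMIs of *Vcan* plus *Chil3* and fewer than 3 of *Cd209a* under the same limits (138 ZsG-negative and 565 ZsG-positive cells). DC1 were cells with 2 or more UMIs of *Xcr1* plus *Clec9a*, again with fewer than 3 of *Cd209a* (19 and 95 cells). NK cells, defined by 3 or more UMIs of *Ncr1* plus *Klrb1c* (1770 and 72 cells), served as the cells that should lack most myeloid RNA. Their median depth was 4847 UMIs in the ZsG-negative and 3622.5 in the ZsG-positive library. Myeloid RNA was counted in them nonetheless. *H2-Aa*, an MHC class II gene, stood at 26.9 CPM in ZsG-negative and 1020 CPM in ZsG-positive NK cells, in 5.2% and 61.1% of them. Whether this RNA was free in the droplets or came from doublets was not tested.

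The *Cd209a*-positive cells formed 1.234% of ZsG-negative cells (exact binomial interval 0.9386 to 1.593%) and 2.328% of ZsG-positive cells (1.89 to 2.836%). The log2 ratio of the shares was 0.92 (0.43 to 1.41). Monocytes had a log2 ratio of 2.22 (1.95 to 2.50) and DC1 of 2.51 (1.79 to 3.30). Of all *Cd209a*-positive cells recovered, 62.3% were in the ZsG-positive library, against 80.4% of monocytes, 83.3% of DC1, 99.6% of macrophages and 3.91% of NK cells. The intervals of the *Cd209a*-positive cells lay below those of monocytes and DC1. The sort sets these shares, and macrophages filled 42.44% of the ZsG-positive library, so they are not shares of the tumor's immune cells.

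The selection removed different cells in the 2 gates. At least 3 *Cd209a* UMIs were found in 79 ZsG-negative and 154 ZsG-positive cells, of which the other limits left out 21 and 58. The C1q limit left out 0 ZsG-negative and 45 ZsG-positive cells, and the *Xcr1* plus *Clec9a* limit 11 and 13. Just inside the *Cd209a* threshold were 26 cells with exactly 3 UMIs, and just outside it 29 cells with exactly 2 that met the other limits. Of these, 18 of the 26 and 26 of the 29 were ZsG-positive, so the pooled values mix the gates differently. The 29 cells held 347.9 CPM of *Mgl2*, 354.1 of *Clec10a* and 173.9 of *Apod*, and the 26 cells held 384.2, 142.9 and 9.526.

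*Cd209a* itself, on chromosome 8 (GRCm38, 3743397 to 3748984, minus strand), ranged from 3 to 38 UMIs per ZsG-negative cell (median 9) and from 3 to 40 per ZsG-positive cell (median 7). Summed levels were 1040 and 874 CPM. These values describe the choice of cells. The neighboring paralog *Cd209d* (chromosome 8, 3871824 to 3878555, minus strand) was not used in the choice. It stood at 265 CPM (162 UMIs) in ZsG-negative and 115 CPM (127 UMIs) in ZsG-positive *Cd209a*-positive cells and at 0 UMIs in the monocytes of both libraries. The difference from monocytes was at least 107-fold in the ZsG-negative and at least 178-fold in the ZsG-positive library, taking 3 UMIs over the group as the limit of a count of 0. *Cd209d* was uneven, with UMIs in 34.5% and 26% of the cells and up to 58 in a single cell. Reads of such close paralogs can be assigned to the wrong gene, so the split within the family is uncertain.

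The markers given for these cells behaved differently from each other. *Clec10a*, a receptor for galactose-type glycans, summed to 292 CPM (interval 250 to 338) in the ZsG-negative and 362 CPM (328 to 400) in the ZsG-positive cells and had a UMI in 63.8% and 75% of them, against 0.508% and 4.17% of NK cells. Its paralog *Mgl2* was at 49.2 CPM (33.2 to 70.2) and 410 CPM (373 to 449), with UMIs in 12.1% and 38.5% of the cells and in 0.0565% and 0% of NK cells. *Clec10a* was thus broad in both gates and *Mgl2* patchy. A single ZsG-positive cell held up to 53 *Mgl2* UMIs, and the top 10 of the 96 cells held 65% of them.

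*Ifitm1*, an interferon-inducible membrane protein, was at 711 CPM (31 of 58 cells) and 1070 CPM (53 of 96 cells). Single cells ranged from 0 to 76 and from 0 to 100 UMIs, with a median of 1 in both gates, so the values were graded from none to many. *H2-DMb2*, a chain of the H2-DM chaperone that loads peptides on MHC class II, was at 52.4 CPM in ZsG-negative and 246 CPM in ZsG-positive cells, with UMIs in 29.3% and 64.6% of them. Its paralog *H2-DMb1* was at 1270 and 1090 CPM.

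*Ffar2*, a receptor for short-chain fatty acids, was at 26.2 and 68.1 CPM, in 15.5% and 28.1% of cells. *Apod*, a lipid-binding lipocalin, was at 14.7 and 47.2 CPM but in only 5 and 12 cells, and the top 10 ZsG-positive cells held 96.2% of its UMIs. At these levels a cell without a UMI may still express the gene.

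Other genes of the DC2 identity list went with the name only in part. *Esam* and *Clec4a4*, markers of a DC2 subset of lymphoid organs, had 0 UMIs in both gates. *Irf4*, a transcription factor of DC2, was low at 37.7 and 21.8 CPM, though above monocytes (12.4 and 3.67 CPM) and DC1 (4.15 and 5.11 CPM). *Sirpa*, a surface marker that DC2 share with monocytes, was at 68.8 and 126 CPM, below its level in monocytes (232 and 228 CPM). *Klf4*, another DC2 factor, was at 192 and 174 CPM in the *Cd209a*-positive cells and at 398 and 213 CPM in monocytes. Genes shared by conventional DCs were present: *Zbtb46*, a transcription factor largely confined to conventional DCs among myeloid cells, was at 21.3 and 27.2 CPM, against 0 and 0.865 in monocytes. *Flt3*, the receptor of the growth factor that sustains DCs, was at 80.3 and 20 CPM, against 9.9 and 1.73 in monocytes. They are called *Cd209a*-positive cells below.

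**Figure D1:**
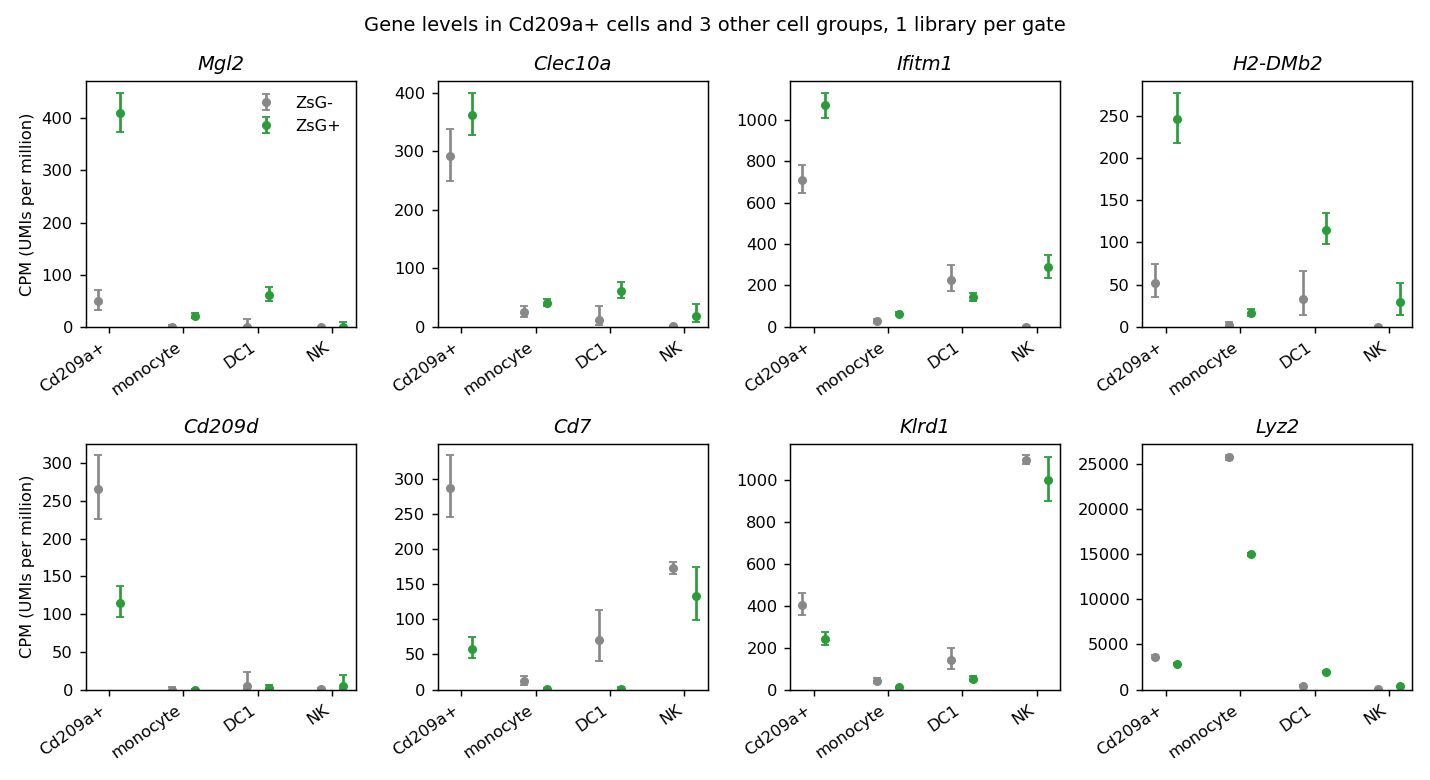
Levels in CPM (y axes, linear, each gene on its own scale) of 8 genes in *Cd209a*-positive cells, monocytes, DC1 and NK cells of the ZsG-negative (grey) and ZsG-positive (green) library. Points are sums over all cells of a group and bars are 95% Poisson intervals (counting error only). *Mgl2* and *H2-DMb2* reached 410 and 246 CPM in ZsG-positive *Cd209a*-positive cells, *Cd209d* was near 0 in the other 3 groups, and *Lyz2* reached 25700 CPM in ZsG-negative monocytes.

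The genes most like *Cd209a* in distribution were sought in the ZsG-positive library after thinning each cell to 3000 UMIs. For each gene the share of *Cd209a*-positive cells with a UMI was set against the highest such share among monocytes, DC1, mature DC, macrophages and NK cells. *Clec10a* came first, in 49% of *Cd209a*-positive cells and at most 14% of another group (macrophages). *Ifitm1* followed with 42.7% and at most 10.5% (DC1), and *Mgl2* with 28.1% and at most 7.89% (macrophages). *Trappc5*, *Bex6*, *Cfp*, *H2-DMb2*, *Afdn*, *Il1r2* and *Vrk1* completed the first 10. Among these, *Cfp*, which encodes the complement regulator properdin, was in 57.3% of *Cd209a*-positive cells and in 37.7% of macrophages. *Il1r2*, a decoy receptor for interleukin 1, was in 20.8% and at most 3.37% (monocytes). No gene came near the separation that the rule gave *Cd209a*, which was left out of the ranking. Without thinning, the shares of *Cd209a*-positive cells were 75% for *Clec10a*, 55.2% for *Ifitm1* and 38.5% for *Mgl2*.

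Antigen presentation on MHC class II was the most abundant program measured. The list of 11 genes, from the antigen-binding chains to the invariant chain *Cd74* and the regulator *Ciita*, summed to 32300 CPM in ZsG-negative and 36200 CPM in ZsG-positive *Cd209a*-positive cells. *H2-Ab1* ranged from 0 to 180 UMIs per ZsG-negative cell (median 57.5) and from 0 to 314 per ZsG-positive cell (median 83.5). The levels differed little between the gates. *Cd74* was at 13100 CPM in both, *H2-Aa* at 6330 and 6690 CPM and *H2-Eb1* at 3630 and 4980 CPM.

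Against monocytes the same genes differed more in the ZsG-negative library. *H2-Aa* was at 281 CPM in ZsG-negative and 2490 CPM in ZsG-positive monocytes, which gave log2 ratios of 4.49 (4.33 to 4.66) and 1.43 (1.39 to 1.47). *Cd74* was at 1250 and 6310 CPM in monocytes, with log2 ratios of 3.39 and 1.05, the latter under 2-fold with TMM factors. Of 9 compared genes of the list in the ZsG-negative library 8 were higher by 2-fold or more (4.65% of all compared genes were), and of 11 in the ZsG-positive library 8 (5.38% of all). *Ctss*, the protease cathepsin S, was the one below monocytes in both (1050 against 1460 CPM, and 1440 against 2260 CPM). The levels that differed between libraries were thus those of the monocytes, while the *Cd209a*-positive cells were near DC1 in both (*H2-Aa* 6370 and 6690 CPM in DC1). ZsG-positive NK cells held 1020 CPM of *H2-Aa*, below both groups, and the part of RNA from other cells in the monocyte values was not tested.

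Class II promoters share a CCAAT-like element, the Y box. The 250 bases before the transcription start of 3 of these genes are shown because these genes were higher together against monocytes. They come from RefSeq on GRCm38.p6 and are written 5′ to 3′ on the strand of the gene, with the letters GATTGG or their complement CCAATC in capitals. *H2-Aa* lies at chr17:34287824-34288073 on the minus strand, with the match 49 bases before the start. *H2-Eb1* lies at chr17:34305617-34305866 on the plus strand, with matches 35 and 60 bases before the start. *H2-DMb2* lies at chr17:34144999-34145248 on the plus strand, with the match 91 bases before the start. This RefSeq start falls inside the gene as GENCODE vM21 draws it (34143307 to 34151555).
H2-Aa: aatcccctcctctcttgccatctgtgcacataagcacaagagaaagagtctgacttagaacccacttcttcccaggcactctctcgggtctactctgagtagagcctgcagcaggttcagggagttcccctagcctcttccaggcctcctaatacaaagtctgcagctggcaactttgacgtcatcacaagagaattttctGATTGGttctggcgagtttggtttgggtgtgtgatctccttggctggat
H2-Eb1: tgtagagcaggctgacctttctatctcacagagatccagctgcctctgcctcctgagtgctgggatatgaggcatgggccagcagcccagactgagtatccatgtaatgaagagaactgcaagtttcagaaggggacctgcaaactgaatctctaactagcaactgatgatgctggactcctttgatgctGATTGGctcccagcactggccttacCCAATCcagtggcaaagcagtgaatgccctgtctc
H2-DMb2: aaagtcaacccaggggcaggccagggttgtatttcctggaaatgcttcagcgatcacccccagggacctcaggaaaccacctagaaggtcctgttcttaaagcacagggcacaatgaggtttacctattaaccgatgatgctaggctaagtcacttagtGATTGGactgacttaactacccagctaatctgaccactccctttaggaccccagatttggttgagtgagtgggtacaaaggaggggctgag
These letters occurred on either strand in 7 of 8 class II genes that had an entry (87.5%), against 4783 of 32851 promoters of the same length (14.6%). *Ctss* was the one without them, and *H2-Ab1* is named only. Among the DC2 identity genes with an entry, 1 of 11 (*H2-DMb2*) held the letters. A match of 6 letters is a description and was not tested as a binding site.

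Genes that NK cells also express formed another part of the profile. *Klrd1*, which encodes the lectin CD94, was at 406 CPM in ZsG-negative and 243 CPM in ZsG-positive *Cd209a*-positive cells, with medians of 3 and 1 UMIs and UMIs in 74.1% and 52.1% of them. Monocytes had UMIs in 10.9% and 4.78% of cells. NK cells themselves stood at 1100 and 1000 CPM. DC1 had 141 and 52.6 CPM, with UMIs in 42.1% and 24.2% of cells, so *Klrd1* was not particular to the *Cd209a*-positive cells.

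*Klrk1*, which encodes the receptor NKG2D, was also well detected, at 297 and 243 CPM and in 79.3% and 86.5% of the cells. It stood at 56.1 and 101 CPM in monocytes, at 245 and 249 CPM in DC1 and at 747 and 599 CPM in NK cells. Other NK genes were scarcer beside *Klrd1* than in NK cells. The *Cd209a*-positive cells held 248 *Klrd1* UMIs beside 111 of *Ncr1*, *Klrb1c*, *Gzma*, *Nkg7* and *Prf1* in the ZsG-negative library (2.23 *Klrd1* per other UMI), and 267 beside 38 in the ZsG-positive library (7.03). NK cells had 0.109 and 0.121, DC1 11.3 and 3.27, and monocytes 0.148 and 1.5. Of 43 ZsG-negative cells with *Klrd1*, 30 had no UMI of *Ncr1*, *Klrb1c* or *Gzma*, and of 50 ZsG-positive cells 49 had none. A UMI of *Ncr1* or *Klrb1c* was found in 5 ZsG-negative cells and 1 ZsG-positive cell. The whole list of 10 NK genes summed to 934 and 534 CPM, with *Klrd1* its most abundant gene, against 14100 and 11600 CPM in NK cells.

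*Cd7*, a surface glycoprotein of lymphocytes that some dendritic cells also express, was at 287 CPM (35 of 58 cells) and 58.1 CPM (22 of 96 cells), against 11.5 and 0.432 CPM in monocytes. *Cd7* and *Klrd1* were thus both detected in a larger share of the ZsG-negative than of the ZsG-positive *Cd209a*-positive cells. The 10 T cell genes summed to 65.6 and 18.2 CPM, partly because the selection limited 3 of them, and *Trbc2*, which it did not use, was at 26.2 and 5.45 CPM. Of the B cell genes *Cd79a* had 0 UMIs, while *Ighm* was at 166 and 117 CPM and at 134 and 78.9 CPM in monocytes. Of 6 neutrophil genes *Csf3r* was the only one with UMIs (6.56 and 10.9 CPM), and 5 mast cell and basophil genes had 0 UMIs.

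The *Cd209a*-positive cells were not uniform. *Lyz2*, the lysozyme of monocytes and macrophages, ranged from 0 to 297 UMIs in ZsG-negative (median 5) and from 0 to 255 in ZsG-positive cells (median 9.5). A division at 20 *Lyz2* UMIs, chosen after these values were seen and used as a description only, put 40 ZsG-negative (69%) and 63 ZsG-positive cells (65.6%) on the low side and 18 and 33 on the high side. Between 10 and 39 UMIs lay 6 ZsG-negative and 26 ZsG-positive cells, so that in the ZsG-positive library the range was continuous rather than divided.

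Several monocyte genes, though not all, were higher on the high side. *Fn1* was at 24.5 CPM on the low and 365 on the high side in ZsG-negative cells, and at 5.83 and 226 CPM in ZsG-positive cells. *Csf1r*, the receptor that sustains macrophages, was at 31.9 and 222 CPM, and at 49.6 and 152 CPM. *Cebpb*, a myeloid transcription factor, was at 285 and 671 CPM, and at 273 and 667 CPM. These genes were higher on the high side in both gates. *Ly6c2* was not, at 400 CPM on the low and 247 on the high side in ZsG-negative cells and at 410 and 882 CPM in ZsG-positive cells. *Cd14* was at 248 and 291 CPM, and at 195 and 438 CPM. *Apoe* was at 0 and 834 CPM in ZsG-negative and at 83.1 and 381 CPM in ZsG-positive cells, but on the ZsG-negative high side it came from 33.3% of 18 cells.

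*Ifitm1*, *H2-DMb2*, *Ffar2*, *Apod* and *Cd7* of the DC2 identity list, and also *Klrd1* and *Cd209d*, were lower on the high side in both gates. *Ifitm1* was at 991 CPM on the low and 148 on the high side in ZsG-negative cells, and at 1490 and 376 CPM in ZsG-positive cells. *Klrd1* was at 520 and 178 CPM, and at 325 and 106 CPM. *H2-DMb2* was at 78.5 and 0 CPM, and at 329 and 108 CPM. *Cd209d* was at 366 and 64.2 CPM, and at 162 and 38.5 CPM. *Ffar2* was at 36.8 and 4.94 CPM, and at 93.3 and 26.5 CPM. *Apod* was at 22.1 and 0 CPM, and at 64.1 and 19.3 CPM. *Cd7* was at 375 and 109 CPM, and at 72.9 and 33.7 CPM. *Sirpa* and *Klf4* of the same list did not share this. *Sirpa* was at 51.5 and 104 CPM, and at 93.3 and 181 CPM. *Klf4* was at 194 and 188 CPM, and at 166 and 188 CPM. *Cd209a* itself did not follow the division, with 1020 and 1090 CPM in ZsG-negative and 948 and 752 CPM in ZsG-positive cells.

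Spearman correlations with *Lyz2* over cells, given without a test because the cells share a library and differ in depth, were 0.53 and 0.60 for *Csf1r*, -0.44 and -0.50 for *Klrd1* and 0.10 and 0.11 for *Cd209a* in the 58 ZsG-negative and 96 ZsG-positive cells. *H2-Ab1* gave -0.06 and -0.43. MHC class II was thus spread over both sides in the ZsG-negative library (*H2-Ab1* 6010 and 5030 CPM) and lower on the high side in the ZsG-positive library (8580 and 5100 CPM). *Mgl2* and *Clec10a* were found on both sides in both gates.

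**Figure D2:**
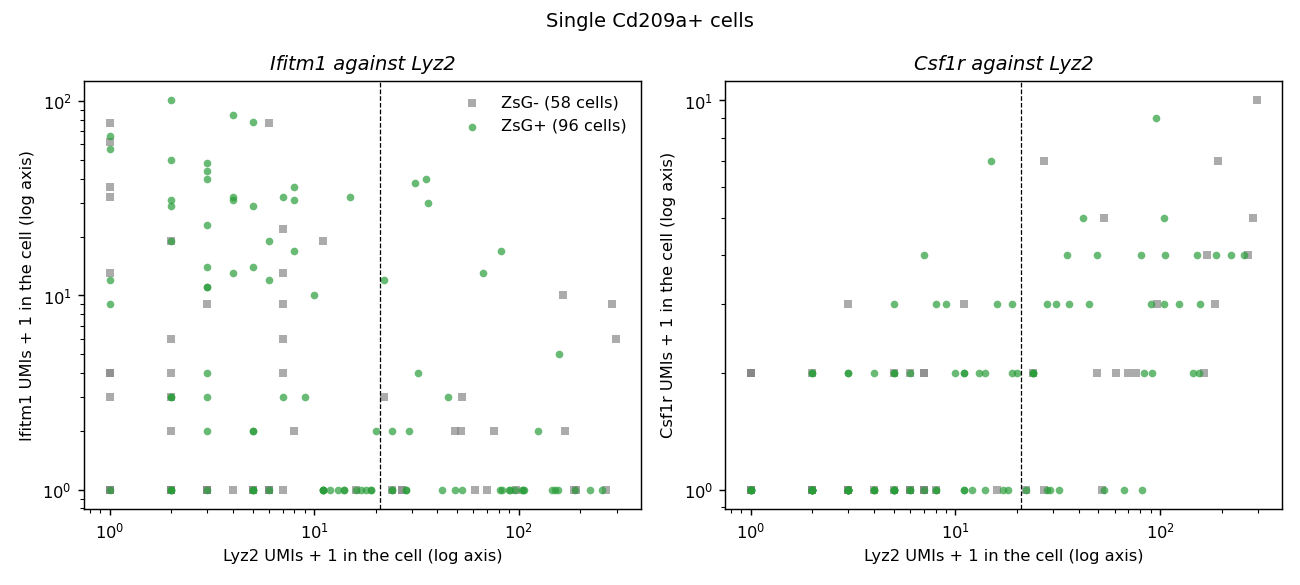
Each point is a *Cd209a*-positive cell of the ZsG-negative (grey squares, 58) or ZsG-positive (green circles, 96) library, with its *Lyz2* UMIs plus 1 on the x axis and its *Ifitm1* (left) or *Csf1r* (right) UMIs plus 1 on the y axis, all log axes. The dashed line marks the division at 20 *Lyz2* UMIs. *Ifitm1* reached 100 UMIs per cell and its high values lay mostly left of the line, while *Csf1r* was more often present right of it.

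The comparison with monocytes asks how the *Cd209a*-positive cells differ from the monocytes of the same library, with gate and run shared. In the ZsG-positive library 374 of 6948 genes were higher by 2-fold or more in the *Cd209a*-positive cells (5.38%) and 588 lower (8.46%). In the ZsG-negative library 198 of 4262 genes were higher (4.65%) and 523 lower (12.3%). The scaling bears on this split. With totals that left out mitochondrial and ribosomal protein genes, the ZsG-positive counts were 482 higher and 480 lower, and with TMM factors 291 and 713. Ribosomal protein genes took 20.9% of the UMIs of ZsG-positive *Cd209a*-positive cells and 14.9% of those of monocytes.

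The 10 highest genes in the ZsG-positive library were *Cd209d*, *Cd7*, *Apod*, *Ccl17*, *Sept3*, *Kmo*, *Klrd1*, *P2ry10*, *Bcl11a* and *Mgl2*. *Ccl17*, a chemokine that attracts T cells through CCR4, was at 161 CPM against 5.19 in monocytes (log2 ratio 4.93, 4.33 to 5.63), yet only 15 of 96 cells held it and 1 of them held 78 UMIs. *Kmo*, an enzyme of tryptophan breakdown, was at 131 against 5.62 CPM. *Bcl11a*, a transcription factor of lymphoid cells and DCs, was at 75.4 against 3.67 CPM. *Mgl2* was at 410 against 21.2 CPM (log2 ratio 4.27, 3.96 to 4.60). *Kmo* and *Cd7* were also among the 10 highest in the ZsG-negative library, together with *Cd209d*, *H2-Oa*, *H2-Eb1*, *Bex6*, *Ifitm1*, *AA467197*, *H2-Aa* and the cyclin *Ccnd1* (465 against 22.3 CPM).

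The 10 lowest genes in the ZsG-positive library were *Slpi*, *Arhgef37*, *Hes1*, *Egln3*, *Fpr2*, *Dmkn*, *Thbs1*, *Ms4a8a*, *Fgd4* and *F10*. *Slpi*, a secreted protease inhibitor, was at 3.63 CPM against 131 in monocytes (4 against 604 UMIs, interval of the log2 ratio -7.05 to -3.80). *Thbs1*, which encodes the matrix protein thrombospondin 1, was at 21.8 against 302 CPM in the ZsG-positive and at 6.56 against 628 CPM in the ZsG-negative library. *Fpr2*, a receptor for formylated peptides, was at 2.72 against 52.7 CPM, and in the ZsG-negative library at 0 UMIs against 50, a difference of at least 8.39-fold. *Treml4*, *Ear2* and *Sgms2* also had 0 UMIs in ZsG-negative *Cd209a*-positive cells and 71 to 74 in ZsG-negative monocytes, at least 11.9-fold lower. The monocytes themselves differed between the libraries in this respect, with 10 non-classical monocyte genes, *Treml4* among them, summing to 2350 CPM in ZsG-negative and 714 CPM in ZsG-positive monocytes. *Arhgef37*, *Gadd45a*, *Cd177*, *Zfyve9* and *Pilra* completed the 10 lowest genes against monocytes in the ZsG-negative library.

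By list, DC2 identity genes and genes shared by conventional DCs were mostly higher than in monocytes, and cytokine genes lower. Of 12 compared DC2 identity genes 10 were past 2-fold higher and 0 lower in the ZsG-positive library (median log2 ratio 3.48, against 0.01 for all compared genes). In the ZsG-negative library 6 of 9 were higher and 2, *Klf4* and *Sirpa*, lower (median 1.82, against -0.13). This list holds the given markers *Mgl2*, *Ifitm1*, *Ffar2*, *H2-DMb2* and *Apod*, chosen with earlier results of these data known. Its counts and medians were therefore fixed in part by that choice. Of 7 compared genes shared by conventional DCs 5 were higher in each library, among them *Dpp4*, the peptidase CD26 (57.2 against 4.54 CPM and 90.1 against 14), *Jaml* and *Bcl11a*. *Id2*, a regulator of DC development, was within 2-fold (121 against 213 CPM and 59 against 111). The lists of other DC types held few compared genes. Of 3 compared plasmacytoid DC genes 1 was higher in the ZsG-positive and 3 in the ZsG-negative library, among them *Tcf4* (94.5 against 54 CPM, within 2-fold, and 208 against 75 CPM). Of 6 compared DC1 genes 0 were higher in either library, with 2 lower in the ZsG-positive and 0 in the ZsG-negative library. Of 4 and 3 mature DC genes 1 and 0 were higher and 1 and 0 lower. The shares over all compared genes were 5.38% higher and 8.46% lower in the ZsG-positive library, and 4.65% and 12.3% in the ZsG-negative library. Counts of 0 or 1 in lists this short do not set these lists apart.

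Cytokine genes were lower in the *Cd209a*-positive cells. In the ZsG-positive library 12 of 14 and in the ZsG-negative library 8 of 9 compared genes were past 2-fold lower and 0 higher. *Il1b* was at 2070 against 6030 CPM and at 3140 against 6350 CPM, *Tnf* at 241 against 955 and at 157 against 424, and *Il6* at 12.7 against 67.7 and at 37.7 against 217. *Il1b* was still detected in 87.9% and 90.6% of the *Cd209a*-positive cells, with a median of 24 and 14 UMIs per cell, and in 5.54% and 52.8% of NK cells. *Tgfb1* and *Ebi3* were the members within 2-fold in the ZsG-positive library.

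Chemokines were lower for 10 of 15 genes in the ZsG-positive and 5 of 10 in the ZsG-negative library. *Ccl2*, which attracts monocytes through CCR2, was at 649 against 3160 CPM and at 197 against 535 CPM. *Cxcl2*, a neutrophil attractant, was at 939 against 3440 CPM and at 91.8 against 1840 CPM. The DC chemokine *Ccl17* was the 1 gene of the list past 2-fold higher in the ZsG-positive library. *Cxcl9*, induced by interferon gamma, was within 2-fold in both (1240 against 1900 CPM and 1410 against 836 CPM).

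Pattern sensors were mostly lower, and Fc and uptake receptors in part. Of the Toll-like receptor list 6 of 9 and 4 of 5 compared genes were past 2-fold lower. Among them were *Tlr2* (91.7 against 193 CPM and 72.1 against 257 CPM) and *Cd14*, a coreceptor for lipopolysaccharide (287 against 823 CPM and 262 against 1040 CPM). In the ZsG-positive library *Tlr2* was within 2-fold with thinned cells and with totals without mitochondrial and ribosomal protein genes. Of 6 Fc receptor genes 4 and 2 were lower, and of 9 and 6 scavenger and uptake receptor genes 3 and 3. The activating Fc receptor *Fcgr3* was at 195 against 560 and at 107 against 441 CPM. The neonatal Fc receptor *Fcgrt* differed from the other Fc receptors, being higher at 144 against 26.2 CPM (log2 ratio 2.46, 2.11 to 2.82) and at 151 against 22.3 CPM (2.74, 2.13 to 3.44).

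C-type lectin receptors divided. *Cd209d*, *Mgl2*, *Clec10a* and *Clec4b1* were higher and *Clec4e* (Mincle, 65.4 against 392 CPM), *Clec4d*, *Clec4a1*, *Clec4a2*, *Clec4a3* and *Clec12a* lower in the ZsG-positive library, *Clec12a* only narrowly (log2 ratio -1.03, and -0.90 to -0.98 under 5 alternatives). The classical monocyte list, without *Vcan* and *Chil3*, was past 2-fold lower for 10 of 13 and 8 of 13 genes. *Ly6c2* was at 588 against 1750 CPM and at 349 against 1150 CPM, and the chemokine receptor *Ccr2* at 442 against 978 and at 669 against 1170 CPM. Both genes were still detected in many *Cd209a*-positive cells, *Ccr2* in 96.6% and 89.6% and *Ly6c2* in 43.1% and 72.9% of them. NK cells had *Ccr2* UMIs in 80% and 75% and *Ly6c2* UMIs in 22.1% and 25% of cells.

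The compared MHC class I and heat shock genes were within 2-fold of monocytes. Of the MHC class I pathway 0 of 13 and 0 of 12 compared genes were past 2-fold in either direction. Of 9 and 8 heat shock genes 0 were. Over all compared genes 5.38% were higher and 8.46% lower in the ZsG-positive library, and 4.65% and 12.3% in the ZsG-negative library. Counts of 0 in lists this short are near those shares and do not set the lists apart. Costimulatory *Cd86* was at 215 against 256 CPM in the ZsG-positive library and at 205 against 101 CPM in the ZsG-negative library. The checkpoint ligand *Cd274* (PD-L1) was at 69 against 181 CPM and at 73.7 against 101 CPM.

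**Figure D3:**
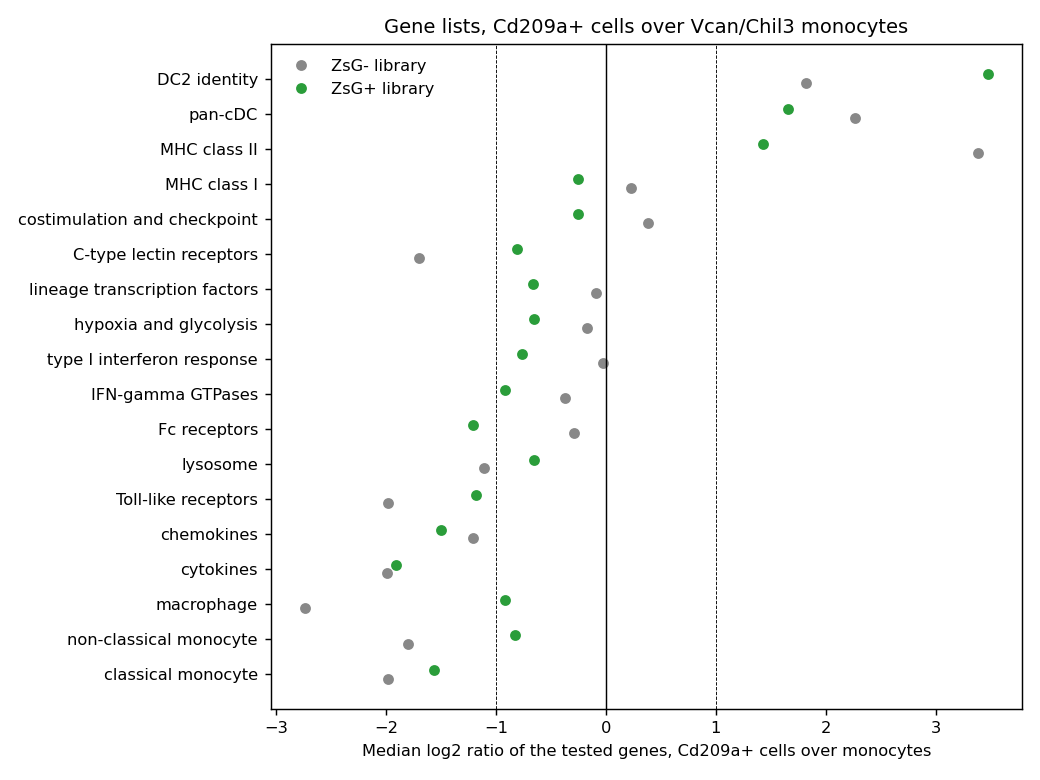
Median log2 ratio of *Cd209a*-positive cells over monocytes (x axis) for the compared genes of 18 lists (y axis), in the ZsG-negative (grey) and ZsG-positive (green) library. The solid line marks no difference and the dashed lines 2-fold. DC2 identity reached 3.48 in the ZsG-positive library and MHC class II 3.39 in the ZsG-negative library, while cytokines were at -1.91 and -1.99. The DC2 identity list holds the markers given for these cells, so its median was fixed in part by their choice.

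ZsG-positive and ZsG-negative *Cd209a*-positive cells were compared to ask how cells sorted for bright tumor-derived fluorescence differ from the rest. The ZsG-negative gate can hold cells with weaker fluorescence, since the sort took the bright ones. Of 3930 genes 222 were past 2-fold higher in ZsG-positive cells (5.65%) and 79 lower (2.01%), with a median log2 ratio of 0.07. With totals without mitochondrial and ribosomal protein genes the counts were 187 and 108. The 10 highest genes were *C3ar1*, *Ccl8*, *Ms4a7*, *Ccl7*, *Hist1h1b*, *Pf4*, *Pclaf*, *Hist1h2ap*, *Cd63* and the chemokine *Ccl17*. Among them *Hist1h1b*, *Pclaf* and *Hist1h2ap* are genes of dividing cells.

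Several of these genes had 0 UMIs in the ZsG-negative cells. *C3ar1*, the receptor of complement fragment C3a, had 90 UMIs in ZsG-positive cells (81.7 CPM, 25 of 96 cells), at least 16.6-fold higher. *Ccl8* had 87 UMIs against 0 (at least 16.1-fold) and *Ms4a7* 53 against 0 (at least 9.79-fold). *Ccl7* was at 464 CPM against 8.19 (log2 ratio 5.69, 4.59 to 7.45), in 44 of 96 and 2 of 58 cells. *Ccl17* was at 161 CPM against 4.92 (4.81, 3.46 to 7.32).

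The same genes also differed between the gates in cells of other types. *Ccl7* was at 74.5 CPM in ZsG-positive and 1.18 CPM in ZsG-negative NK cells, at 1450 and 58.6 CPM in monocytes, and at 381 and 0 CPM in DC1. *Ccl8* was at 58.5 and 2.71 CPM in NK cells, and *C3ar1* at 34.6 and 0.271 CPM. *Cxcl2*, at 939 against 91.8 CPM in the *Cd209a*-positive cells (log2 ratio 3.34, 2.97 to 3.77), was at 112 and 6.42 CPM in NK cells. No single ZsG-positive NK cell held more than 4 UMIs of *Ccl7*, *Ccl8*, *C3ar1* or *Cxcl2*, whereas single ZsG-positive *Cd209a*-positive cells held up to 181 of *Ccl7*, 35 of *Ccl8*, 20 of *C3ar1* and 68 of *Cxcl2*. Macrophages were 42.44% of the ZsG-positive and 0.149% of the ZsG-negative library, and the part of RNA from macrophages in these levels was not tested.

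*Mgl2* and *H2-DMb2* were the given markers with the most different levels. *Mgl2* was at 410 CPM in ZsG-positive and 49.2 in ZsG-negative cells (log2 ratio 3.04, 2.52 to 3.64), and *H2-DMb2* at 246 and 52.4 CPM (2.21, 1.70 to 2.81). *Mgl2* was at 0 and 0.0904 CPM in ZsG-positive and ZsG-negative NK cells, at 61.3 and 0 CPM in DC1 and at 21.2 and 0 CPM in monocytes. *H2-DMb2* was at 115 and 33.2 CPM in DC1, at 16.6 and 1.65 CPM in monocytes and at 29.3 and 0.362 CPM in NK cells, where 3 of 72 ZsG-positive cells held 11 UMIs. *Clec10a* and *Ifitm1* stayed within 2-fold (0.31 and 0.59). Of 12 compared DC2 identity genes 4 were past 2-fold higher and 3 lower (median log2 ratio 0.45), the lower ones being *Cd7*, *Tmem176a* (79 against 198 CPM) and *Tmem176b* (105 against 303 CPM), the latter pair within 2-fold among cells under 20 *Lyz2* UMIs (-0.60 and -0.92).

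**Figure D4:**
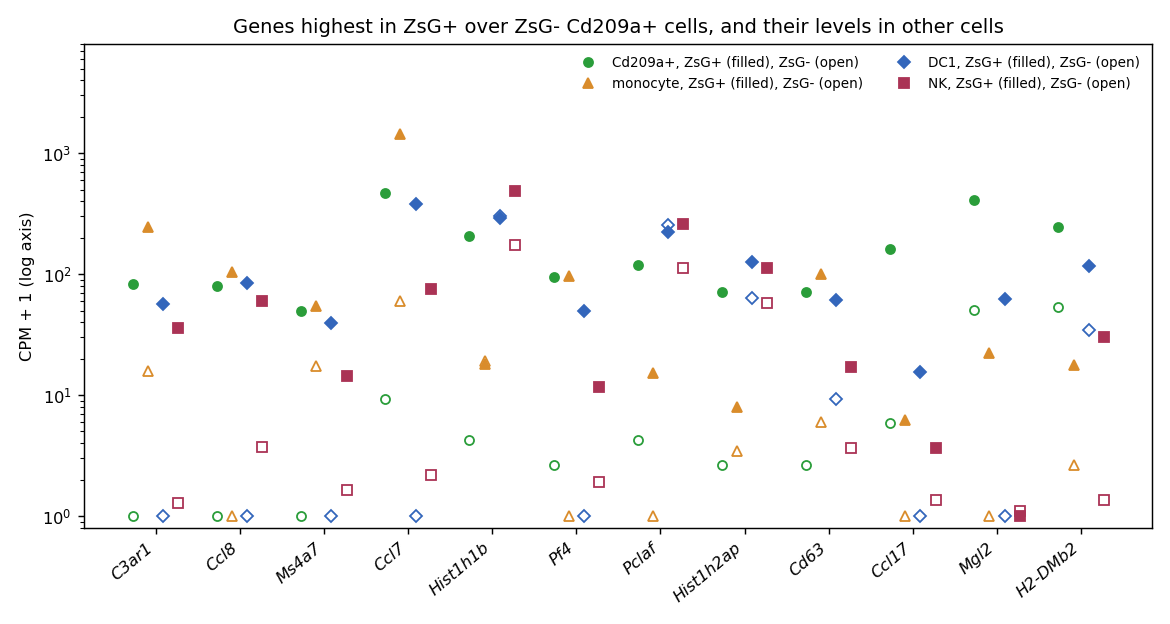
Levels as CPM plus 1 (log y axis) of the 10 genes highest in ZsG-positive over ZsG-negative *Cd209a*-positive cells, and of *Mgl2* and *H2-DMb2* (x axis), in *Cd209a*-positive cells (circles), monocytes (triangles), DC1 (diamonds) and NK cells (squares); filled, ZsG-positive library, open, ZsG-negative library. *Ccl7* was higher in the ZsG-positive library in all 4 groups (464, 1450, 381 and 74.5 CPM), and *Mgl2* in 3 of them (410, 21.2 and 61.3 CPM), with 0 CPM in ZsG-positive NK cells.

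Glycolysis genes were higher in ZsG-positive cells. Of 14 compared genes of the hypoxia and glycolysis list 10 were past 2-fold higher and 0 lower (median log2 ratio 1.13). *Gapdh* was at 1950 against 882 CPM (log2 ratio 1.15, and 0.99 with thinned cells), *Tpi1* at 382 against 63.9, *Mif*, a cytokine induced by hypoxia, at 573 against 175 and *Pkm* at 712 against 326. *Ldha* (639 against 446 CPM) and *Hk2* (107 against 85.2) stayed within 2-fold. The same list was past 2-fold higher for 13 of 15 genes in monocytes, 8 of 14 in DC1 and 1 of 15 in NK cells, where 8.22%, 7.79% and 5.24% of all compared genes were. *Gapdh* in NK cells was at 1480 and 1170 CPM.

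Genes of dividing cells were higher for 7 of 8 compared genes and were found in a minority of the cells. *Top2a*, a topoisomerase of dividing cells, was at 112 against 3.28 CPM, in 22 of 96 and 2 of 58 cells, and *Pclaf* at 119 against 3.28 CPM, in 11 and 2 cells. Of the ZsG-positive *Cd209a*-positive cells 11 of 96 (11.5%, exact interval 5.86 to 19.6%) had 3 or more UMIs of *Mki67*, *Top2a*, *Birc5*, *Cdk1* and *Pclaf* together. Of the ZsG-negative cells 0 of 58 did, with an exact upper limit of 6.16%. These 11 cells were deep, with a median of 19653 UMIs. Without them *Mki67*, *Pclaf*, *Stmn1* and *Tyms* were no longer past 2-fold higher, and their log2 ratios turned negative. For *Mki67* and *Pclaf* this follows in part from how the cells were chosen. DC1 had 31 of 95 and 4 of 19 such cells, and monocytes 9 of 565 and 1 of 138.

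Macrophage and lysosome genes formed another group. Of 7 compared macrophage genes 5 were past 2-fold higher, among them *Mrc1*, the mannose receptor (115 against 41 CPM), and *Trem2*, a lipid receptor (55.4 against 4.92 CPM). *Apoe* was at 195 against 277 CPM, but in 45 of 96 ZsG-positive and only 6 of 58 ZsG-negative cells. The same list was past 2-fold higher for 6 of 9 genes in monocytes, 4 of 5 in DC1 and 2 of 3 in NK cells. All 15 macrophage genes, those of the C1q limit included, summed to 579 CPM in ZsG-negative and 1090 CPM in ZsG-positive cells, with *Apoe* (277 CPM) and *Cd68* (304 CPM) the most abundant. In the ZsG-negative cells 4 of the 15 had 0 UMIs, and in the ZsG-positive cells 1, the scavenger receptor gene *Cd163*. Of 16 lysosome genes 6 were higher, including the proteases *Ctsd* (249 against 41 CPM) and *Lgmn* (228 against 34.4). A single ZsG-positive cell held 112 of the 274 *Ctsd* UMIs. The protease *Ctsb* was also higher (591 against 252 CPM, within 2-fold among cells under 20 *Lyz2* UMIs). In NK cells 8 of 14 lysosome genes were past 2-fold higher as well, against 5.24% of all genes compared there.

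Chemokines were higher for 8 of 14 genes and lower for 2. *Ccl2* was at 649 against 197 CPM, *Ccl12* at 220 against 36.1 and *Cxcl16*, a chemokine for CXCR6, at 117 against 44.2 (within 2-fold among cells under 20 *Lyz2* UMIs). In NK cells 6 of 9 compared chemokine genes were past 2-fold higher too, again against 5.24% of all genes. The lower genes were *Cxcl10*, induced by interferons (1350 against 3170 CPM), and *Ccl4* (379 against 811 CPM). Among cells with at least 5 *Cd209a* UMIs both were within 2-fold (log2 ratios -0.63 and -0.61).

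Type I interferon response and most antigen presentation genes were within 2-fold between the gates, as were most genes compared. Over all 3930 genes 5.65% were past 2-fold higher and 2.01% lower. The counts of the lists below are near these shares and do not set the lists apart. Of 13 type I interferon response genes 0 were past 2-fold in either direction, with *Ifitm3* at 5340 and 5290 CPM. Of 9 GTPases induced by interferon gamma 1 was higher, *Iigp1* (297 against 96.7 CPM), and 1 lower, *Irgm1* (87.2 against 205 CPM, within 2-fold among cells under 20 *Lyz2* UMIs). Of 12 MHC class I genes 0 and of 11 MHC class II genes 1 (*H2-DMb2*) were past 2-fold higher. Of 7 costimulation and checkpoint genes 0 were past 2-fold, with *Cd86* at 215 and 205 CPM and *Cd40* at 101 and 116 CPM.

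The 10 lowest genes in ZsG-positive cells were *Upb1*, *Gzma*, *Lmo1*, *Ikzf2*, *Cd7*, *Trf*, *Ypel3*, *Ccpg1*, *Flt3* and *Areg*. *Upb1*, an enzyme of pyrimidine breakdown, was at 2.72 against 77 CPM (log2 ratio -4.61, -7.15 to -3.19), in 2 of 96 and 17 of 58 cells. *Lmo1*, a transcriptional cofactor, was at 20 against 134 CPM (-2.73, -3.50 to -2.06), in 17 of 96 and 35 of 58 cells. Both were low or absent in NK cells (0 and 1.45 CPM for *Upb1*, 0 and 1.08 CPM for *Lmo1*). *Lmo1* was lower in the ZsG-positive library in DC1 too (32.1 against 66.4 CPM, 44 and 16 UMIs). In monocytes *Lmo1* was at 4.11 against 19.8 CPM (19 and 24 UMIs). *Upb1* in DC1 was at 2.19 against 33.2 CPM (3 and 8 UMIs). The UMIs of *Lmo1* in monocytes and of *Upb1* in DC1 were under the minimum for a comparison. *Cd7* was at 58.1 against 287 CPM (-2.30, -2.74 to -1.88), and in DC1 at 0.73 against 70.6 CPM (1 and 17 UMIs, also under that minimum).

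*Flt3* was at 20 against 80.3 CPM (-1.99, -2.80 to -1.25), in 14.6% and 44.8% of cells, and in DC1 at 58.4 against 99.7 CPM. *Trf*, which encodes the iron carrier transferrin, was at 47.2 against 223 CPM, in 39 of 96 and 43 of 58 cells, and in monocytes at 65.3 against 162 CPM. *Gzma*, a granule protease of NK cells, had 15 UMIs in 1 ZsG-positive cell and 57 in 14 ZsG-negative cells, beside a level of 6020 CPM in ZsG-negative NK cells. In monocytes *Gzma* was at 1.3 against 159 CPM, in 6 of 565 and 32 of 138 cells. NK cells were 1.746% of the ZsG-positive and 37.67% of the ZsG-negative library, and the part of RNA from NK cells in these levels was not tested. *Ikzf2*, a transcription factor also expressed by NK cells, was within 2-fold when only cells with less than 5% mitochondrial UMIs were used (log2 ratio -0.86). The same held for *Ikzf2* among cells under 20 *Lyz2* UMIs. *Tcf4*, a transcription factor of plasmacytoid DCs, was at 94.5 against 208 CPM. It was within 2-fold in cells with less than 5% mitochondrial UMIs (-0.82) and with cells thinned to 3000 UMIs.

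**Figure D5:**
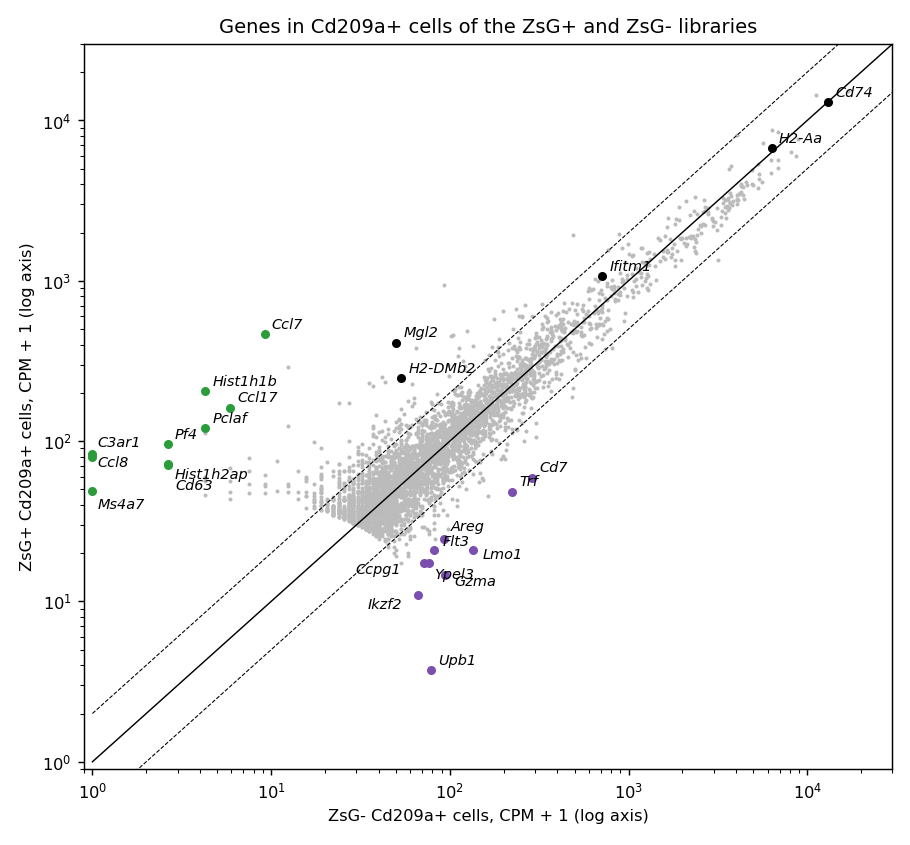
Each grey point is a gene with at least 50 UMIs, with its level in ZsG-negative (x axis) and ZsG-positive (y axis) *Cd209a*-positive cells as CPM plus 1 on log axes; the solid line marks equal levels and the dashed lines 2-fold. Green points are the 10 highest and purple points the 10 lowest genes, and black points are 5 other named genes. The green and purple genes were picked only from genes detected in 10% or more of the higher group's cells. *Cd74* (13100 CPM in both) and *H2-Aa* lay near the line, *Mgl2* and *H2-DMb2* above the upper dashed line, and *Upb1* lowest at 2.72 against 77 CPM.

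Against DC1 of the ZsG-positive library, 254 of 4981 genes were past 2-fold higher in *Cd209a*-positive cells (5.1%) and 188 lower (3.77%). *Cd7* (58.1 against 0.73 CPM), *Cd209d* (115 against 2.19), *Ccl17* (161 against 14.6) and *Ifitm1* (1070 against 144) were higher. *Itgae*, the integrin chain CD103, was at 3.63 against 132 CPM and *Tlr3*, a sensor of double-stranded RNA, at 9.08 against 83.9 CPM. Of 12 DC2 identity genes 10 were higher and 1 lower, and of 8 DC1 genes 0 were higher and 6 lower. The DC2 identity list holds the given markers, so its count was again fixed in part by their choice. The MHC class II list summed to 36200 CPM in the *Cd209a*-positive cells and 37300 CPM in DC1. Of its 11 genes 1 was past 2-fold higher, which is near the share over all genes. Of 14 type I interferon response genes 7 were past 2-fold higher in the *Cd209a*-positive cells than in DC1 and 0 lower (median log2 ratio 0.94), and of 14 classical monocyte genes 7 were higher and 0 lower.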

How the data were processed

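CD45-positive cells from mouse melanomas were sequenced as 1 library per ZsG gate. The deposited values are raw UMI counts per gene and cell, which the authors made with Cell Ranger 6.1.2 on mm10 (the matrix header names version 7.0.0) and merged into 1 matrix of 32285 genes. Whether merging equalized depth is not stated in the labels or methods. The barcode suffix gave the gate. The separate T cell sort was not used.

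Cells with at least 1000 and fewer than 6000 genes and under 10% mitochondrial UMIs were kept (41552930 UMIs in ZsG-negative, 50427199 in ZsG-positive cells). No doublet caller was run, and leaving out the top 5% of cells by UMIs was an alternative. UMIs were summed per group and expressed as CPM (Python 3.11.15 with scipy 1.17.1 and numpy 2.4.6). Intervals were exact Poisson for levels, Clopper-Pearson for shares and exact conditional for ratios, all at 95% and for counting error only. Log2 ratios had 0.5 UMI added to each sum. A fold against a count of 0 used a floor of 3 UMIs over the group. edgeR 4.0.16 served only for TMM factors. The calculation was tested on simulated data. Genes named were the listed genes and, per comparison, the 10 highest and 10 lowest log2 ratios among genes with at least 50 UMIs over both groups. For these 10, detection in 10% or more of the higher group's cells was also required, so rarer genes could not be named this way. The cells and the 32 gene lists were chosen with earlier results of these data known, so counts over lists leave out the genes of the selection rule and are descriptions. The division at 20 *Lyz2* UMIs, the cycling score and the sets without cycling cells or shared barcodes were added after the data were seen. Gene positions are from GENCODE vM21 and promoters from RefSeq, both on GRCm38. Results for some genes are not reported here.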

Additional observations from a re-analysis of the deposited data

Results flagged for a closer look

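Of 4227 genes compared with monocytes in both libraries, 3 were past 2-fold in opposite directions. *Hmgb2*, a chromatin protein abundant in dividing cells, was higher in ZsG-positive *Cd209a*-positive cells than in monocytes (319 against 145 CPM, log2 ratio 1.14) and lower in ZsG-negative ones (179 against 409 CPM, -1.19). *Mir155hg*, the host gene of microRNA 155, was lower in the ZsG-positive (20.9 against 53.2 CPM, -1.32) and higher in the ZsG-negative library (47.5 against 17.3 CPM, 1.45). *Susd3* was higher in the ZsG-positive (41.8 against 20.8 CPM, 1.02) and lower in the ZsG-negative library (16.4 against 56.9 CPM, -1.74). With 1 library per gate these differences were not tested.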

How the results depend on the processing

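With 1 library per gate the spread between mice is unknown, doublets were not called, and *Cd209a*-positive DC2 and monocyte-derived DCs cannot be told apart here. No paired analysis was possible because each gate had 1 library and the labels give no replicate numbers. The log2 ratio of the shares ranged from 0.63 (fewer than 3 C1q UMIs) to 1.19 (at least 2 *Cd209a* UMIs). The number of genes past 2-fold between gates was 301 of 3930 (7.66%). It was 98 of 1342 (7.3%) with cells thinned to 3000 UMIs and 189 of 2800 (6.75%) with only cells under 20 *Lyz2* UMIs. With a minimum of 20 UMIs, of 200 UMIs and with none it was 779 of 6424 (12.1%), 70 of 1239 (5.65%) and 3259 of 12163 (26.8%). Against ZsG-positive monocytes it was 962 of 6948 (13.8%), and 1528 of 8750 (17.5%), 422 of 3503 (12%) and 3679 of 13501 (27.2%) with those minimums. The cycling *Cd209a*-positive cells were all ZsG-positive and defined by *Mki67*, *Top2a*, *Birc5*, *Cdk1* and *Pclaf*. Without them lower values of these genes were fixed by the choice. The counts were then 250 of 3580 (6.98%) between gates and 888 of 6838 (13%) against monocytes. Log2 ratios then reversed for *Stmn1* (-0.36 between gates, -0.98 against monocytes), *Tyms* (-0.18 and -0.18), *Mki67* (-0.54 and -1.25), *Pclaf* (-1.28 and -3.07) and, against monocytes, *Birc5* (-3.50). *Hspa1b* reversed between gates with only cells under 20 *Lyz2* UMIs (-0.30), and the cause was not tested. Of the listed and named genes past 2-fold, 83 between gates and 155 against monocytes had a value under all 15 settings other than the minimum of 200 UMIs, and 51 and 120 of these were past 2-fold under each of the 15.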
